A study of Saccharomyces cerevisiae with 18 samples.

Results

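The Δ*apn1*/p*MAG*/p*APN1* strain (below, the double overexpression strain) of *Saccharomyces cerevisiae* carries both the *MAG1* and the *APN1* gene on plasmids, and its 3 arrays were compared with the 3 arrays of wild type, chosen by their titles out of 18 arrays in the series. All 6504 probe sets that carry the name of 1 gene, out of 9335 on the array, entered the comparison. They stand for 5656 genes. Each array held RNA of 1 culture grown to mid-log phase in galactose medium without uracil, and the arrays were Affymetrix Yeast Genome S98. Both strains were built in BGY111, a MATa background with *his3*, *leu2*, *ura3-52*, *trp1* and *can1* mutations that can grow on galactose. Wild type carried the empty pYES vector. In the double overexpression strain the chromosomal *APN1* gene was disrupted with *HIS3*, pYES-MAG expressed *MAG1* from a galactose promoter beside *URA3*, and pYepAPN1-2A carried *APN1* beside *LEU2*. Growth without uracil selects the pYES plasmids. Each genotype is 1 strain, so that its arrays repeat the culture and not the construction of the strain.

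Base excision repair removes damaged bases from DNA in steps. A glycosylase such as Mag1 cuts out an alkylated base and leaves an abasic site, which the AP endonuclease Apn1 opens so that the gap can be filled and sealed. Abasic sites and open strands that outlast this sequence block DNA polymerases and can engage the DNA damage checkpoint, which in yeast raises the supply of deoxynucleotides. The comparison asked which transcripts differ from wild type when the glycosylase and the next enzyme are both supplied in excess.

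Values are RMA signals on the log2 scale, and a difference is the mean of the 3 arrays of the double overexpression strain minus the mean of the 3 wild type arrays. Differences were tested with limma in 1 fit of all 18 arrays, two-sided, with p adjusted over the 6504 probe sets. The methods of the study name other thresholds, a difference of at least 1.5-fold with p under 0.05, and state no adjustment. Both were applied here to limma's unadjusted p, and a gene past both is called higher or lower at the thresholds. An unmoderated test, in which each probe set has its own variance over the 18 arrays, was run beside limma. The correlation was 0.968 to 0.983 between arrays of the double overexpression strain, 0.964 to 0.980 between those of wild type and 0.955 to 0.980 between the strains. A set of 69 probe sets for small nucleolar, small nuclear and ribosomal RNA had a mean signal of 1.76 to 1.85 on the arrays of the double overexpression strain and 1.78 on replicate 1 of wild type, against 2.37 and 2.16 on replicates 2 and 3 of wild type. The *ACT1* signal at the 3′ end minus that at the 5′ end, a sign of how complete the labelled RNA was, was 0.825 to 0.988 in the former strain and 0.652, 1.82 and 1.35 in wild type. By noncoding RNA signal the 18 arrays fell into a class of 7 with high and 11 with low signal, and replicates 2 and 3 of wild type were in the high class. Replicate 1 of wild type was thus nearer to the other strain in both measures than replicates 2 and 3 were, and the difference from replicate 1 alone is given for many of the genes below. Neither the labels nor the methods name a batch.

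*APN1* was read first. Its signal on the 3 arrays of the double overexpression strain was 4.57, 7.48 and 7.26, against 1.14, 1.26 and 1.88 in wild type. All arrays of the strain were above all of wild type, and its replicate 1 was low among the 3. The means were 6.43 ± 1.62 (SD, n = 3) and 1.43 ± 0.40, a 32.1-fold difference (difference 5.01 with a standard error of 0.56, limma's adjusted p = 0.00152). *APN1* was the 1 probe set of 6504 that passed the adjusted threshold, or 0.0154%, and the unmoderated test also passed 1. At an unadjusted p under 0.05 there were 489 by limma and 478 by the unmoderated test. Without replicate 1 of the strain the log2 difference was 5.94 (adjusted p = 3.2e-07), and 2 probe sets passed, the other being *LEU2*. In a fit of only the 6 arrays the difference of *APN1* was not past the adjusted threshold (adjusted p = 0.402). In a culture, fewer cells with a plasmid and less transcript per cell cannot be told apart. Where the probes lie against the disruption of the chromosomal gene is not known. They read 2.81 to 3.15 on the arrays of Δ*apn1*, 3.64 to 4.38 on those of Δ*apn1*/p*MAG* and 7.27 to 7.96 on those of Δ*apn1*/p*APN1*.

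*MAG1* read 3.80, 2.83 and 1.82 in the double overexpression strain and 1.11, 0.99 and 0.89 in wild type. The arrays did not overlap, but the difference of 1.82 (standard error 1.26) passed neither the adjusted threshold nor those of the methods (adjusted p = 0.744 from limma). The fit shares 1 spread among the 6 strains, and the SD of *MAG1* was 2.94 over the arrays of WT/p*MAG* and 2.83 over those of Δ*apn1*/p*MAG*. The wild type signals of *MAG1* and *APN1* were below the median of every array, except *APN1* on replicate 3, so they are not shown to be above background and the folds are those of the signals. With the array class as a block the difference of *MAG1* was 3.41. It was then past the thresholds of the methods but not the adjusted threshold (adjusted p = 0.703 from limma). The excess of *MAG1* transcript that the label states is therefore visible in direction on all 3 arrays. It is not separated from wild type by the fit without a block.

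The selection markers of the plasmids and of the disruption were read on each array. *LEU2*, the marker beside *APN1*, read 5.94, 9.95 and 9.15 on replicates 1, 2 and 3 of the double overexpression strain, against 4.70, 5.58 and 5.17 in wild type. Replicate 1 was low for *LEU2* as it was for *APN1*. Its difference was 3.20 with all arrays (adjusted p = 0.292) and 4.40 without replicate 1 (adjusted p = 0.0064), and the other 2 *LEU2* probe sets differed by 2.46 and 2.62 with all arrays. *HIS3*, inserted in the disrupted gene, read 5.37, 4.78 and 5.51 against 3.25, 3.96 and 4.16, a difference of 1.43 (adjusted p = 0.159) without overlap. In the other strains with the insertion it read 4.31 to 5.35 (Δ*apn1*), 5.26 to 5.53 (Δ*apn1*/p*MAG*) and 4.21 to 4.78 (Δ*apn1*/p*APN1*). It read 4.39 to 4.76 in WT/p*MAG*, without the insertion, so its signal did not set apart all strains that carry it. *URA3*, present on the pYES plasmids of both strains, read 4.98, 4.90 and 5.42 against 6.20, 7.37 and 7.59. It was lower at the thresholds by 1.95 on the log2 scale (log2 difference -1.95, adjusted p = 0.466), and by 1.10 against replicate 1 of wild type alone (log2 difference -1.10). With the array class as a block it was not past the thresholds (log2 difference -1.24).

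**Figure D1:**
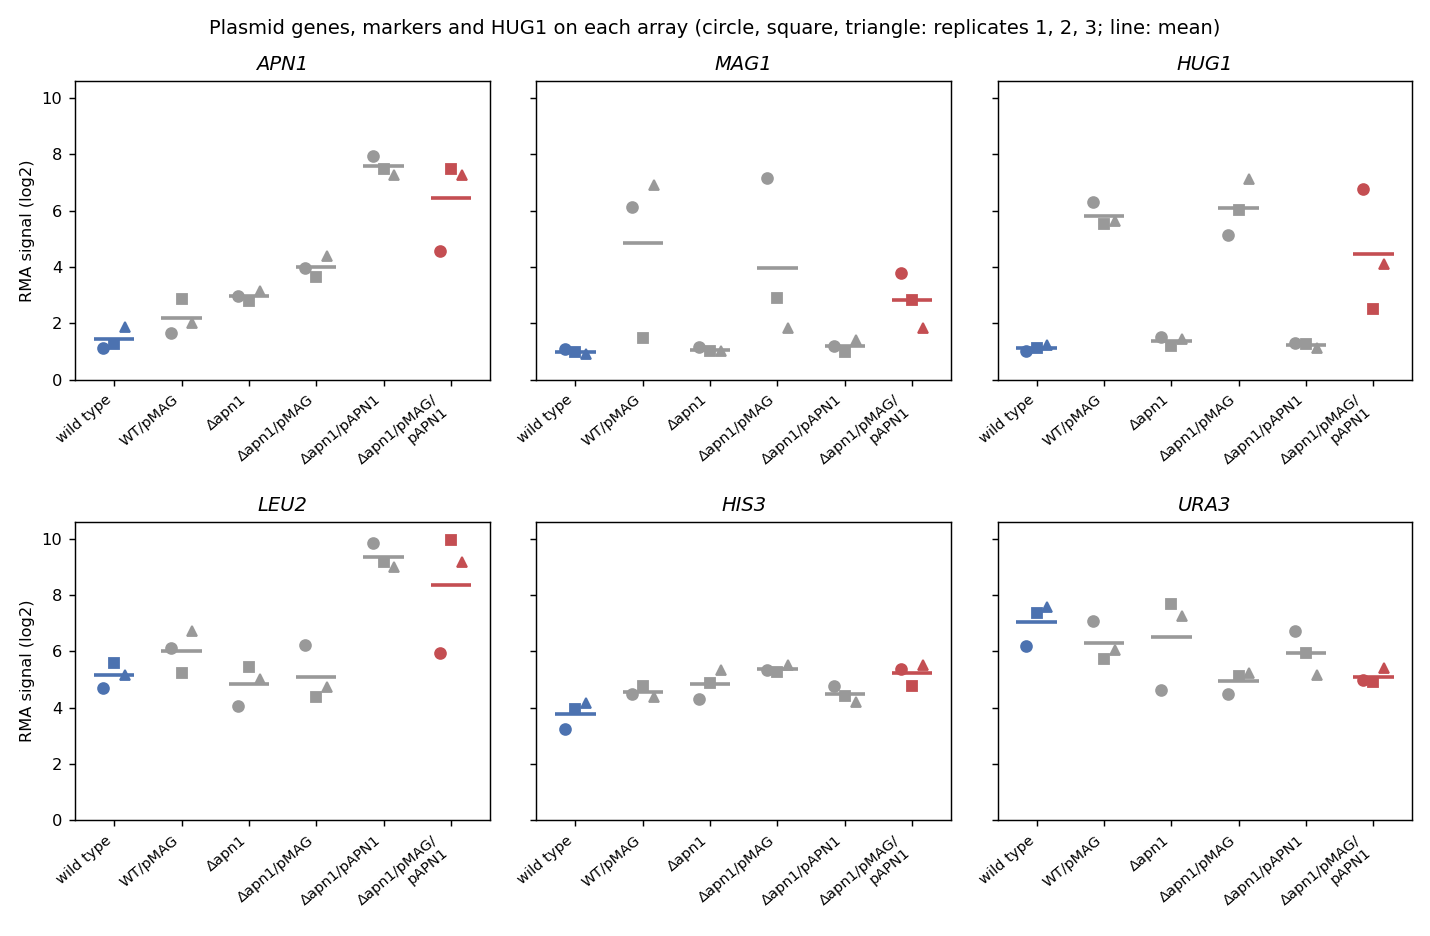
RMA signal (log2) of *APN1*, *MAG1*, *HUG1* and the markers *LEU2*, *HIS3* and *URA3* on each of the 18 arrays, with the mean of each strain as a line (n = 3) and the probe set of highest mean signal for each gene. On replicate 1 of the double overexpression strain (circle) *APN1* and *LEU2* are low, at 4.57 and 5.94. *HUG1* and *MAG1* are at their highest in the strain on that array, at 6.75 and 3.80.

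At the thresholds of the methods 118 probe sets (1.81%) lay higher and 103 (1.58%) lower in the double overexpression strain. The unmoderated test put 97 higher and 76 lower, and the same test with only the 6 arrays 60 and 64. In that last fit 2 genes of lysine synthesis, 2 of the tricarboxylic acid cycle, 1 of ribonucleotide reductase and its regulators, 4 of the drug response and 0 of arginine synthesis were higher, against 6, 5, 5, 5 and 3 described below. By genes, with limma's p and the probe set of highest mean signal for each, these were 114 (2.02%) and 98 (1.73%). Over all probe sets the median difference was 0.03 and its SD 0.338, with a median standard error of 0.193. The 3 arrays of the strain lay above all 3 of wild type for 484 probe sets (7.44%) and below for 436 (6.7%). Without replicate 1 of the strain, whose *APN1* signal is low, 105 genes (1.86%) were higher and 107 (1.89%) lower, and 140 of the 221 probe sets past the thresholds with all arrays were past them again. Of those 140, 111 had no overlap between the strains, 58 higher and 53 lower. A fit with the array class by noncoding RNA as a block gave 87 genes higher (1.54%) and 47 lower (0.831%), and kept 98 of the 221 probe sets. Against replicate 1 of wild type alone, 215 of the 221 kept their direction and 122 still differed by at least 1.5-fold, 80 higher and 42 lower. Apart from *APN1*, no gene described below passed the adjusted threshold with all arrays.

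**Figure D2:**
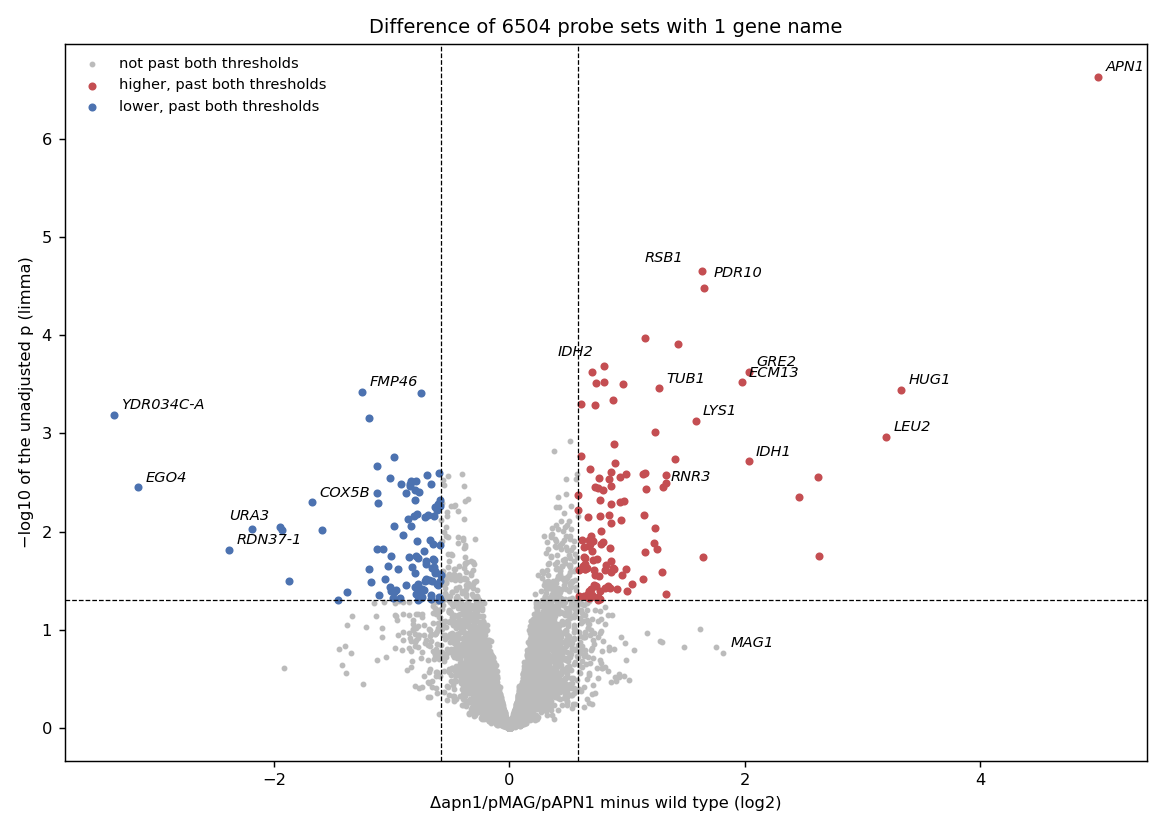
Log2 difference between the double overexpression strain and wild type against the unadjusted p of limma, on a −log10 axis, for 6504 probe sets. Dashed lines mark the thresholds of the methods, and *APN1*, with a difference of 5.01, stands apart from the rest.

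Among 18 measured genes of base excision repair, 2 were higher and 1 lower at the thresholds, and the median difference was 0.09, against 0.04 over all genes. *APN1* was 1 of those higher. *RAD27*, which encodes the flap endonuclease that trims displaced strands, read 3.20, 2.21 and 3.69 against 2.01, 2.39 and 2.55, a difference of 0.72 with overlap (adjusted p = 0.596), and was no longer past the thresholds without replicate 1 (0.63). *RAD27* is the next gene to *APN1* on chromosome XI in the R64 annotation, and whether the plasmid holds part of it is not stated. *NTG1*, a glycosylase for oxidized bases that can also cut abasic sites, read 1.16, 0.95 and 1.01 against 1.32, 2.01 and 1.56, a log2 difference of -0.59 (adjusted p = 0.609). Its mean in wild type was at the level of the array medians, and against replicate 1 of wild type alone the log2 difference was -0.28. The remaining enzymes of the pathway were not past the thresholds: *APN2*, the second AP endonuclease, differed by -0.03, and the glycosylase genes *NTG2*, *OGG1* and *UNG1* by 0.35, 0.35 and 0.04.

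None of the 64 measured genes in 4 lists of other repair and checkpoint functions passed the thresholds in either direction. The lists covered recombination with double-strand break repair (18 genes), nucleotide excision with mismatch repair (19), translesion synthesis with post-replication repair (12) and checkpoint kinases with their adaptors (15). At an unadjusted p under 0.05 without the fold, limma passed 5 of the 64, and the unmoderated test also put 0 past the thresholds. Over all genes limma passed 7.9% at that p and, as given above, 2.02% higher and 1.73% lower at the thresholds, so the count of these lists lay close to the background. The list medians lay between 0.07 and 0.11.

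Of 14 measured genes of ribonucleotide reductase and its regulators, 5 were higher and 0 lower at the thresholds, with a median difference of 0.30, and all 14 differences were above 0, as were 3303 of 5656 over all genes. *HUG1*, a small protein induced by DNA damage that inhibits the enzyme, read 6.75, 2.51 and 4.11 against 1.03, 1.13 and 1.22 in wild type. All 3 arrays were above wild type, and the difference was 3.33 (standard error 0.73, adjusted p = 0.159), or 2.18 without replicate 1 (adjusted p = 0.321). The wild type signals of *HUG1* were below the median of every array, so its difference is one of signals not shown to start above background. Within the strain the array with the lowest *APN1* signal had the highest *HUG1* signal, and the array with the highest *APN1* signal the lowest. *MAG1* was also highest on replicate 1, at 3.80, against 2.83 and 1.82 on replicates 2 and 3. The part of either plasmid gene in the *HUG1* signal was not tested. On the arrays of the other strains *HUG1* read 5.54 to 6.31 in WT/p*MAG* and 5.13 to 7.13 in Δ*apn1*/p*MAG*, both with the *MAG1* plasmid, and 1.11 to 1.53 in Δ*apn1* and Δ*apn1*/p*APN1*, without it. Replicates 2 and 3 of the double overexpression strain, at 2.51 and 4.11, thus lay between these ranges.

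*RNR3*, the large subunit induced by damage, read 4.77, 3.60 and 3.13 against 2.90, 2.32 and 2.37, a difference of 1.30 (2.47-fold, adjusted p = 0.354) without overlap and 0.84 without replicate 1. Replicate 1 was again the highest array. *RNR1*, the large subunit of growing cells, read 7.52, 5.64 and 6.85 against 5.99, 4.32 and 4.76. Its difference of 1.65 (adjusted p = 0.565) came with overlap and was not past the thresholds without replicate 1 (1.22). It was 0.68 against replicate 1 of wild type alone. *RNR2*, a small subunit, read 7.75, 7.32 and 7.75 against 6.85, 6.78 and 6.82, a difference of 0.79 (adjusted p = 0.509). *RNR4*, the second small subunit, read 7.82, 6.997 and 6.83 against 6.63, 6.41 and 6.37, a difference of 0.75 (adjusted p = 0.574). Neither small subunit overlapped with wild type, and *RNR4* was not past the thresholds without replicate 1 of the strain (0.44), while *RNR2* was (0.72). Of the 5 genes, 3 were counted without replicate 1 of the strain, 3 without replicate 3 of wild type and 2 in the low array class alone. The upstream regulators were not past the thresholds: the checkpoint kinase *DUN1* differed by 0.31 and the repressor *RFX1* by 0.29, and the negative regulators *SML1* and *DIF1* by 0.13 and 0.29.

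Of 15 measured genes of a DNA damage signature that shares members with the group above, 4 were higher and 0 lower, and these were *HUG1*, *RNR2*, *RNR3* and *RNR4*. Without replicate 1 there were 3. In DNA replication, 4 of 51 genes were higher and 0 lower, with a median difference of 0.15. These were *RAD27*, *RFA2*, a subunit of the single-strand binding factor (0.74), and the catalytic subunits *POL1* and *POL2* of the replicative polymerases (0.72 and 0.59). None of the 4 was past the thresholds without replicate 1 or replicate 3 of the strain or with the array class as a block, and 1 to 2 genes of the list were without replicate 1 or 2 of wild type. When all probe sets of a gene were averaged, *POL2* turned to -0.12. None of 5 histone genes was past the thresholds or an unadjusted p under 0.05 by limma or the unmoderated test. *HTB1* and *HTB2*, near-identical copies for histone H2B that probes may not separate, differed by -0.33 and 0.17 with overlap in both.

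Direct comparison with the strains that hold only 1 of the plasmids passed no probe set at the adjusted threshold: 0 of 6504 against Δ*apn1*/p*MAG* (0%) and 0 against Δ*apn1*/p*APN1* (0%) by limma and also by the unmoderated test. At an unadjusted p under 0.05 limma gave 265 and 361, and the unmoderated test 231 and 349. *APN1* itself was 2.44 above its mean in Δ*apn1*/p*MAG* (adjusted p = 0.759 from limma). It was 1.14 below that in Δ*apn1*/p*APN1* (log2 difference -1.14, adjusted p = 0.915). *HUG1* was 1.64 below its mean in Δ*apn1*/p*MAG* (log2 difference -1.64, adjusted p = 0.996) and 3.23 above that in Δ*apn1*/p*APN1* (adjusted p = 0.347). *RNR3* was 0.23 below the former (log2 difference -0.23) and 1.58 above the latter (adjusted p = 0.367). For *PDR10*, a drug transporter described below, the differences were 0.33 and 1.36. These comparisons share the arrays of the double overexpression strain with that against wild type.

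Apart from the strain and plasmid markers, lysine synthesis had the largest share of genes past the thresholds among the 50 lists. Of 11 measured genes 6 were higher and 0 lower, against 2.02% and 1.73% over all genes. Their median difference was 0.68, against 0.04 over all genes. The count was 2 with the unmoderated test of only the 6 arrays and 4 to 6 under the other alternatives that were run. *LYS20* and *LYS21* encode the homocitrate synthases of the first step. *LYS21* read 5.71, 4.84 and 5.08 in the double overexpression strain against 3.94, 3.99 and 4.24, a difference of 1.15 (adjusted p = 0.354) without overlap. *LYS20* read 8.15, 6.92 and 8.61 against 5.63, 7.32 and 7.33, a difference of 1.13 with overlap. *LYS4*, homoaconitase, differed by 0.68 and *LYS2*, the aminoadipate reductase, by 1.16. The last steps are carried out by the saccharopine dehydrogenases. *LYS9* read 4.86, 4.25 and 4.68 against 3.42, 3.73 and 3.71, a difference of 0.98 without overlap. *LYS1* read 5.60, 4.18 and 5.60 against 2.81, 3.81 and 4.02, a difference of 1.58 (2.99-fold, adjusted p = 0.220) without overlap. For all 6 genes replicate 2 was the lowest of the 3 arrays of the strain and replicate 1 the lowest of wild type. Against replicate 1 of wild type alone the differences were therefore larger, from 0.98 for *LYS4* to 2.32 for *LYS1*.

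Other amino acid pathways followed in smaller numbers. In histidine synthesis 3 of 7 genes were higher, of which *HIS3* is the disruption marker. *HIS4*, which acts at several steps, read 8.13, 8.40 and 8.78 against 6.71, 8.04 and 7.71, a difference of 0.95 without overlap that was 1.73 against replicate 1 of wild type alone, and *HIS7* differed by 0.69. In arginine synthesis 3 of 11 were higher, *ARG1* by 1.29, *CPA1* by 0.78 and *ARG7* by 0.68, with overlap in *CPA1* alone. *ARG1* differed by 2.23 and *ARG7* by 1.05 against replicate 1 of wild type alone. The count was 1 without replicate 1 of either strain and 0 without replicate 3 of the double overexpression strain or with the array class as a block. Over 97 measured genes of amino acid synthesis, without *HIS3* and transporters, 15 were higher and 0 lower, against 2.02% and 1.73% over all genes. The median was 0.31, against 0.04, and 81 differences were above 0, as were 3303 of 5656 over all genes. Without replicate 1 of the strain the count was 12 and with the array class as a block 8 higher and 1 lower. None of 12 genes of branched-chain and 13 of aromatic amino acid synthesis passed the thresholds, and at an unadjusted p under 0.05 limma gave 2 and 4 and the unmoderated test 2 and 5.

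The tricarboxylic acid cycle was higher in 5 of 21 measured genes and lower in none, against 2.02% and 1.73% over all genes. The median difference was 0.26, against 0.04 over all genes. The 5 lie in the first part of the cycle and at fumarase. *CIT1*, citrate synthase, read 7.89, 8.35 and 8.70 against 6.98, 7.63 and 7.90, a difference of 0.81, and 1.33 against replicate 1 of wild type alone. *ACO1*, aconitase, read 7.61, 8.05 and 8.19 against 6.75, 6.64 and 6.99, a difference of 1.15 (2.22-fold, adjusted p = 0.159) without overlap. The isocitrate dehydrogenase subunits came next. *IDH1* read 5.79, 5.67 and 5.83 against 3.75, 2.36 and 5.08, a difference of 2.03 (adjusted p = 0.354) in which the spread lay in wild type. *IDH2* read 7.81, 8.001 and 8.26 against 7.08, 7.27 and 7.29, a difference of 0.81 (adjusted p = 0.159), and neither subunit overlapped with wild type. *FUM1*, fumarase, differed by 1.25, and by 2.43 against replicate 1 of wild type alone. *ACO1* and *IDH2* stayed past the thresholds under all 21 alternatives that were run and *IDH1* under all but the unmoderated test of only the 6 arrays. The count of the list was 3 without replicate 1 of wild type and 8 in the low array class alone.

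The pleiotropic drug response is a set of membrane transporters and lipid-handling proteins under the factors Pdr1 and Pdr3. Of its 22 measured genes 5 were higher and 0 lower, against 2.02% and 1.73% over all genes. The median difference was 0.35, against 0.04 over all genes. *PDR10*, an ABC transporter, read 5.12, 5.11 and 4.77 in the double overexpression strain against 4.21, 2.94 and 2.88 in wild type, a difference of 1.66 (standard error 0.28, 3.15-fold, adjusted p = 0.072). *RSB1*, which helps move sphingoid bases out of the cell, read 3.42, 2.61 and 2.89 against 1.54, 1.04 and 1.44, a difference of 1.64 (standard error 0.27, adjusted p = 0.072). These had the smallest p after *APN1*, and neither overlapped with wild type. The wild type signals of *RSB1* were below the median of every array. *SNQ2*, a second ABC transporter, read 6.32, 6.22 and 6.33 against 5.50, 5.14 and 4.23, a difference of 1.33 (adjusted p = 0.354). *PDR16*, a phosphatidylinositol transfer protein, differed by 0.94 and *TPO1*, a polyamine exporter, by 1.00 with overlap. For all 5, replicate 1 was the highest array of wild type. Against that array alone the differences were 0.79 for *PDR10*, 1.44 for *RSB1*, 0.79 for *SNQ2*, 0.59 for *PDR16* and -0.14 for *TPO1*, and without it 8 genes of the list were higher.

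**Figure D3:**
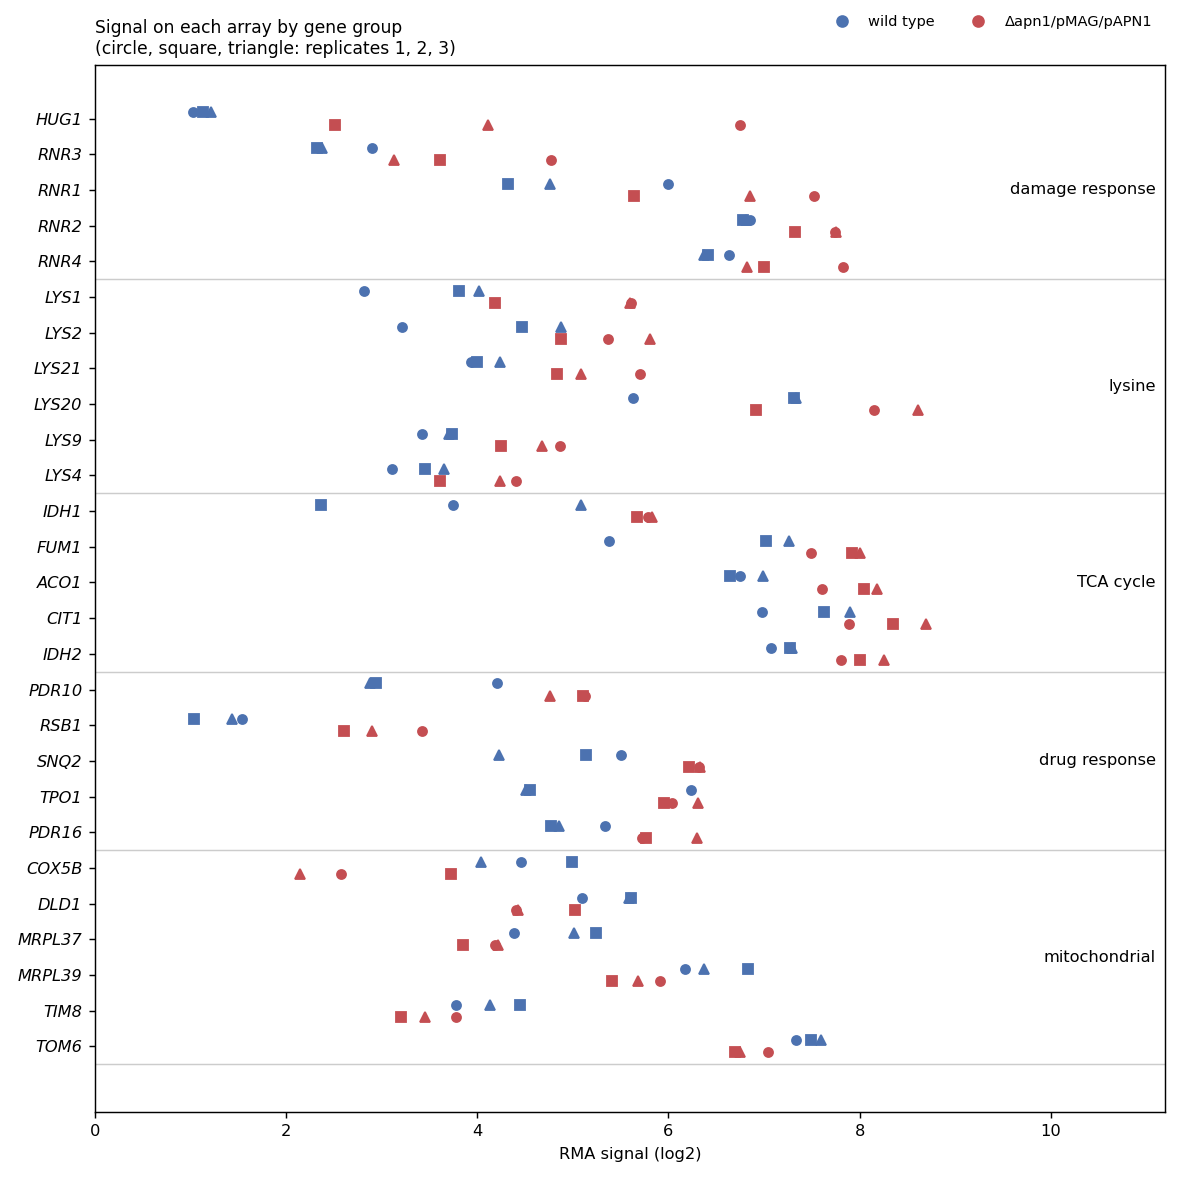
RMA signal (log2) of 27 genes on each array of wild type and the double overexpression strain, by gene group. Replicate 1 of wild type (circle) is the lowest wild type array for the 6 lysine genes and the highest for the 5 drug response genes, and *IDH1* and *PDR10* spread more in wild type than in the other strain.

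Further genes with large positive differences belonged to several functions. *GRE2*, a reductase induced by stress, read 4.61, 4.98 and 4.64 against 3.77, 2.12 and 2.25, a difference of 2.03 (4.09-fold, adjusted p = 0.159) without overlap, and 0.98 against replicate 1 of wild type alone. *TUB1*, the main alpha-tubulin, read 5.43, 5.27 and 5.91 against 4.01, 4.17 and 4.61, a difference of 1.27 (adjusted p = 0.159), and *TUB2*, beta-tubulin, differed by 0.63, and by 0.42 against replicate 1 of wild type alone. Both tubulins lay above wild type on all 3 arrays. *ECM13*, whose function is not established, differed by 1.98 and *ERG5*, a desaturase of ergosterol synthesis, by 1.41, and by 1.34 and 0.48 against replicate 1 of wild type alone. Of 34 genes of the cell surface and cell wall 3 were higher, *CRH1*, a wall transglycosylase, by 1.13, *CCW14*, a wall mannoprotein, by 0.76 and *YPS3*, a surface protease, by 0.63, and none lower. *CRH1* differed by 1.79 against replicate 1 of wild type alone. *HSP26*, a small heat shock protein, read 5.30, 6.33 and 4.12 against 5.04, 1.63 and 1.20. Its difference of 2.63 came with overlap and was 0.21 against replicate 1 of wild type alone.

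The genes with the largest negative differences past the thresholds were *YDR034C-A*, of no known function, and *EGO4*. *YDR034C-A* read 3.99, 3.56 and 2.69 against 6.49, 6.57 and 7.27, a 10.3-fold lower signal (log2 difference -3.36, adjusted p = 0.210). *EGO4* read 2.67, 6.80 and 2.79 against 6.94, 7.53 and 7.25, so that replicates 1 and 3 were far below wild type and replicate 2 close to it (log2 difference -3.15, adjusted p = 0.354). The ribosomal RNA probe set *RDN37-1* read 2.24, 2.07 and 1.86 against 2.47, 5.59 and 5.26, a log2 difference of -2.38 with all wild type arrays and -0.41 against replicate 1 of wild type. It is 1 of the 69 noncoding RNA probe sets that define the array classes. *FMP46*, a mitochondrial protein, read 3.86, 4.85 and 4.06 against 5.84, 5.51 and 5.17, a log2 difference of -1.25 (adjusted p = 0.159), and *AIM7*, a regulator of actin branching, differed by -1.19. *FBP1*, the gluconeogenic fructose bisphosphatase, read 1.49, 1.31 and 1.20 against 2.13, 2.82 and 2.44, a log2 difference of -1.13 without overlap.

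Among 71 mitochondrial ribosomal proteins 0 were higher and 4 lower, *MRPL37*, *MRPL39*, *MRPL51* and *MRPL9*, with differences from -0.59 to -0.80 and a list median of -0.14. Against replicate 1 of wild type alone *MRPL37*, *MRPL39* and *MRPL9* differed by -0.30, -0.50 and -0.17. On all 3 arrays 14 of the 71 lay below wild type and 2 above, against 320 below and 461 above of 5656 over all genes. Among 43 genes of mitochondrial protein import 3 were lower and 0 higher. *TIM8*, *TIM17* and *TOM6*, components of the import machinery, differed by -0.65, -0.64 and -0.64 without overlap, and *TIM8* by -0.31 against replicate 1 of wild type alone. Among 38 genes of the respiratory chain and ATP synthase 1 was higher and 3 lower. *COX5B*, the isoform of cytochrome oxidase subunit V made at low oxygen, read 2.58, 3.72 and 2.14 against 4.45, 4.99 and 4.03, a log2 difference of -1.68 (3.2-fold lower, adjusted p = 0.379) without overlap. *COX13* differed by -0.61 and *DLD1*, a lactate dehydrogenase, by -0.81. *HAP4*, the activator subunit for respiratory genes, was higher by 0.76 with overlap. Against replicate 1 of wild type alone these 3 genes differed by -0.37, -0.48 and 0.44. With the array class as a block the counts of lower genes were 3 mitochondrial ribosomal, 1 import and 2 respiratory. Without replicate 2 of either strain 2 mitochondrial ribosomal and 1 import gene were lower, and in the low array class alone 0 of both.

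**Figure D4:**
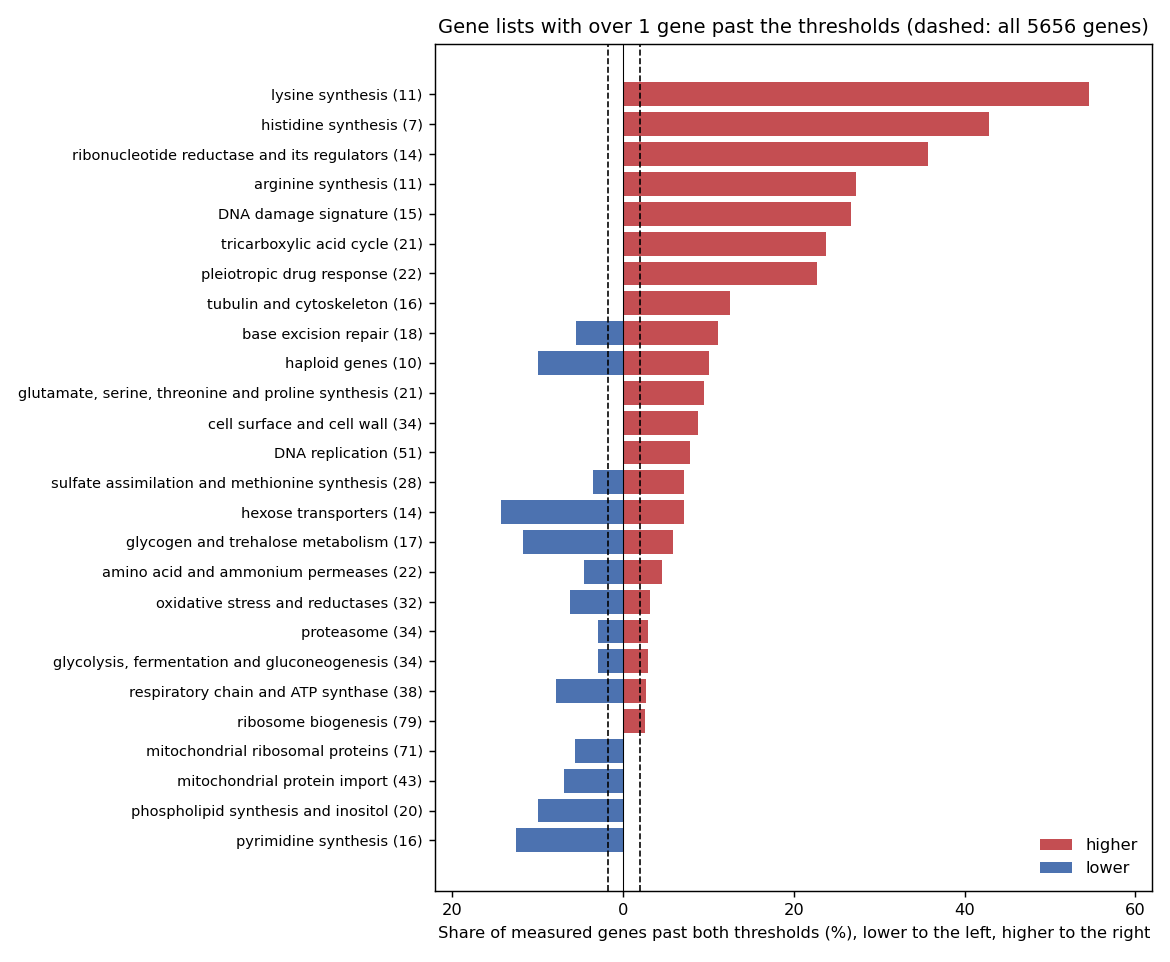
Share of the measured genes of each list past the thresholds of the methods (%), higher to the right and lower to the left, for the 26 lists with more than 1 such gene, with the number measured in brackets. Dashed lines mark the shares over all 5656 genes, 2.02% higher and 1.73% lower, and lysine synthesis reaches farthest with 6 of 11 higher.

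Short genes made up a larger share of the lower genes than of the higher. The coding length in the R64 annotation, taken from the first to the last coding base with introns included, had a median of 486.5 bases over the 90 lower genes with such a length, against 1300.5 over the 114 higher genes and 1249.5 over all 5486 coding genes measured. Of the 90 lower genes 46 (51.1%) were under 500 bases, as were 5 (4.39%) of the higher and 628 (11.4%) of all. The lists differed in the same measure, with medians of 717 bases for mitochondrial ribosomal proteins, 653 for mitochondrial import, 1323 for lysine synthesis, 1392 for the tricarboxylic acid cycle and 2025 for the pleiotropic drug response. Across the 5486 genes, which are not independent replicates, Spearman's rho between length and the difference was 0.278. It was 0.0625 against replicate 1 of wild type alone, and 0.304 and 0.271 against replicates 2 and 3. The deviation of each array from the mean of all 18 ran against length on replicates 2 and 3 of wild type (rho -0.290 and -0.225), and not on its replicate 1 (0.0730) or the arrays of the double overexpression strain (0.00649, 0.264 and 0.0837). The *ACT1* ratio and the noncoding RNA signal set apart the same 2 wild type arrays, and the part of any of these in the lower genes was not tested. Against replicate 1 of wild type alone, 20 of the 46 short genes (43.5%) and 18 of the 44 longer ones (40.9%) were still at least 1.5-fold lower.

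**Figure D5:**
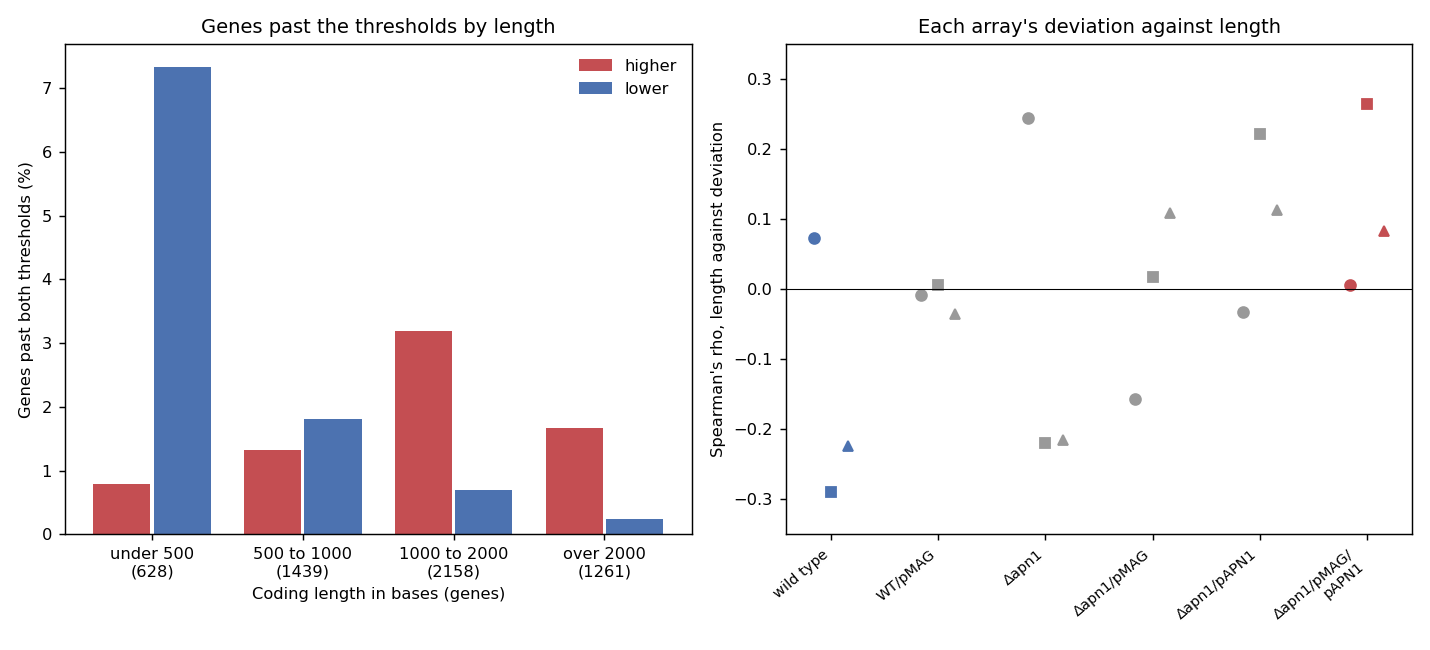
Left, share of genes higher and lower at the thresholds (%) by coding length, with the number of genes in brackets. Right, Spearman's rho across 5486 genes between coding length and the deviation of each array from the mean of all 18, by strain. Under 500 bases 7.32% were lower and 0.796% higher, and replicates 2 and 3 of wild type (square, triangle) are at -0.290 and -0.225.

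The remaining lists gave few genes. Of 14 hexose transporters 1 was higher, *HXT5*, which read 3.79, 4.16 and 3.77 against 3.14, 3.14 and 2.81, a difference of 0.88 (adjusted p = 0.175) without overlap. The near-identical *HXT6* and *HXT7*, which probes may not separate, had log2 differences of -0.80 and -0.84 over the 3 arrays, with replicates 1 and 3 below wild type and replicate 2 within its range. *HXT6* differed by -0.52 against replicate 1 of wild type alone. Of 17 genes of glycogen and trehalose metabolism 2 were lower, *GLC3*, the branching enzyme, by 1.46 (log2 difference -1.46) and *GLG1*, a glycogenin, by 0.80 (log2 difference -0.80), and 1, the glucoamylase *SGA1*, was higher by 0.61. In *GLC3* replicate 2 of the strain, at 6.41, exceeded all wild type arrays, and replicates 1 and 3, at 3.27 and 3.29, were below them. *ITR1*, the inositol transporter, and *CHO1*, phosphatidylserine synthase, differed by -0.87 and -0.85 without overlap. The log2 differences of *ITR1*, *CHO1* and *GLG1* from replicate 1 of wild type alone were -0.57, -0.32 and -0.32. None of 11 galactose genes passed the thresholds, and 2 passed an unadjusted p under 0.05 alone by limma and by the unmoderated test. On all 3 arrays 4 of the 11 lay above wild type and 0 below, against 461 above and 320 below of 5656 over all genes. The list median was 0.38, against 0.04 over all genes. With the array class as a block it was 0.05, and 1 gene of the list was higher at the thresholds. *GAL1*, the galactokinase, read 8.83, 9.69 and 9.04 against 8.80, 8.74 and 8.80, so that the induction that drives pYES-MAG was present on all 6 arrays and highest on replicate 2 of the strain.

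The label MATa was read against the mating type genes. *MFA1* (by its probe set of highest mean signal) and *MFA2*, the genes of a-factor, and the receptor gene *STE2* had signals between 4.58 and 9.71 on all 6 arrays. Of 7 mating type a genes 1 was lower at the thresholds, *MFA1* with 7.87, 7.53 and 6.95 against 8.60, 8.50 and 8.34, a log2 difference of -1.03 without overlap. With the array class as a block that probe set differed by -0.58 and was not past the thresholds. Another *MFA1* probe set read 2.74 to 3.37 and differed by -0.27 with all arrays, also not past them. *MFA2* differed by -0.54 and *STE2* by -0.08. *BAR1* read 3.75 to 4.36 and *AGA2* 3.39 to 4.06. *ASG7* read 0.96 to 1.95 and *STE6* 1.49 to 2.34, near the array medians. On all 3 arrays 4 of the 7 a genes lay below wild type, against 320 of 5656 over all genes. The list median was -0.48, and -0.45 against replicate 1 of wild type alone. With the array class as a block it was -0.17, and 0 genes of the list were lower at the thresholds. Of the alpha genes *STE3*, *MF(ALPHA)1* and *MF(ALPHA)2* read 1.39 to 1.91 on the 6 arrays, near the array medians, and *SAG1*, the alpha-agglutinin gene, 4.13 to 4.85. None of 4 mating type alpha and 16 sporulation genes was past the thresholds or an unadjusted p under 0.05 by limma or the unmoderated test. Of 50 cytosolic ribosomal protein genes 0 were higher or lower at the thresholds and 1 passed an unadjusted p under 0.05 by either test, with a list median of -0.21. Without replicate 1 of the double overexpression strain 7 of the 50 were lower (median -0.36) and without replicate 1 of wild type 4, and against replicate 1 of wild type alone the median was 0.08. Of the 50 lists 18 had 0 genes past the thresholds in either direction. Among their 292 entries limma passed 16 at an unadjusted p under 0.05, and the unmoderated test put 0 past the thresholds.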

How the data were processed

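The authors extracted RNA with hot phenol from 3 cultures per strain, hybridized 1 culture per array and processed the scans with RMA (background correction, quantile normalization and probe summary, version not given in the sources used here). The deposited log2 values, 1 per probe set and array, were used as they stand. Of 9335 probe sets, 60 controls, 2443 without a gene name in the annotation used and 328 naming more than 1 gene did not enter. The fit of limma 3.58.1 in R 4.3.3 took 18 arrays and estimated a mean for each strain (12 residual degrees of freedom, two-sided, Benjamini-Hochberg over 6504 probe sets). The methods name an ANOVA on the triplicate arrays of each strain and of wild type, with no further detail. The unmoderated test is the same contrast without moderation, with residual variance over all 6 strains, or, as an alternative added after seeing the data, over only the 6 arrays. The counts at the thresholds use limma's p unless stated. The script was tested on simulated data. Depth has no meaning for these arrays, and their number limits the precision.

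Genes were counted once, by the probe set of highest mean. The 50 gene lists were written from general knowledge and described by counts and medians. The text names strain and plasmid markers, genes at an adjusted p under 0.05, up to 12 largest rises and 12 largest falls past the thresholds with and without replicate 1 of the strain and without overlap, up to 4 members per list by p, and *RNR2*, *RNR3*, *RNR4*, *HUG1*, *HTB1* and *HTB2*. Members, lists and rule were chosen with earlier results of these data known. Chosen after their values were seen were the other genes named, the coding lengths (97.3% divisible by 3), the division into array classes with at least 3 arrays a side (7 and 11 arrays), the list of cytochrome oxidase assembly and the isoform pairs. Alternatives were the unmoderated test, only the 6 arrays, the replicate block, repeated quantile normalization, centring on array medians, leaving out the dimmest probe sets (share 0.25), array weights, trend and robust eBayes, all probe sets other than controls, averaging the probe sets of a gene, leaving out each array and the array classes. p-values measure the spread between cultures of 1 strain each.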

Additional observations from a re-analysis of the deposited data

How the results depend on the processing

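Of 1910 values for 91 named genes other than *APN1* and *MAG1*, 1598 kept direction and side of the thresholds, 306 kept direction only, 3 newly passed and 3 reversed. For 20 genes no value lost a call or reversed. Among these, *HTB1* and *TRP1* were not past the thresholds with all arrays and had no call to lose. The reversed values were *CAN1* at -0.0158 with only the low array class, *HTB2* at -0.0511 with that class as a block, and *POL2* at -0.12 with the probe sets of a gene averaged. At adjusted p, the count of 1 was 0 with only the 6 arrays, by limma and unmoderated, and with only the low class, 21 with array weights, 2 with trend and robust, 4 with averaged probe sets and 1 to 11 leaving out 1 array (11 without replicate 2 of the strain, 3 without replicate 1 of wild type). The 118 higher and 103 lower were 60 and 64 unmoderated with only the 6 arrays, 226 and 194 with array weights, and 93 to 226 and 47 to 200 leaving out 1 array (226 and 200 without replicate 1 of wild type, 198 higher without replicate 2 of the strain, 47 lower without replicate 2 of wild type). With the array class as a block 62 were lower. The difference of *APN1* lost its call in the 6 arrays (5.01, adjusted p = 0.402, or 0.625 unmoderated) and in the low class (5.29, adjusted p = 0.270), both with fewer arrays. *MAG1* never passed the adjusted threshold. Against Δ*apn1*/p*MAG* the count of 0 became 1 with the class at the widest gap as a block or with its low class alone. That class sets apart only replicate 1 of Δ*apn1*/p*MAG*. The count was 0 to 3 leaving out 1 array of the double overexpression strain or wild type. Against Δ*apn1*/p*APN1* it became 9 with array weights, 1 in the low class and 0 to 5 leaving out 1 array. Same-numbered arrays of the strains had deviations that correlated by -0.124, -0.0623 and 0.213, and whether they share more than a number was not tested. A replicate block gave counts of 1, 116 higher and 94 lower, and changed the side of 3 named genes. The causes were not tested.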

Other observations

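Genes of cytochrome oxidase assembly, a group not described above, were lower in the double overexpression strain where they passed the thresholds of the methods. The group was put together after single members had been seen, and it has no test. Of 29 measured genes 0 were higher and 8 lower, against 2.02% and 1.73% over all genes. Of their differences 19 were below 0, while 3303 of 5656 over all genes were above 0. The median difference was -0.15, against 0.04 over all genes. *PET191* read 2.62, 2.54 and 2.69 against 3.34, 4.08 and 3.47 in wild type, a log2 difference of -1.01 without overlap. *COX17*, the copper chaperone of the oxidase, read 3.10, 3.34 and 2.78 against 3.61, 4.06 and 3.87, a log2 difference of -0.78 without overlap. *CMC1*, *PET117* and *COX16* differed by -0.77, -0.71 and -0.64. Without replicate 1 of the strain 5 genes were lower at the thresholds. Against replicate 1 of wild type alone the list median was -0.20, and of the lower genes *PET191* and *COA6* differed by -0.72 and -0.60. *COX17*, *CMC1*, *COX16*, *COA2*, *COA4* and *PET117* then differed by -0.54 to -0.34, which is under 1.5-fold. The coding length had a median of 618 bases over the list, but all 8 lower genes were shorter, from 207 (*COA2*) to 453 bases (*COA4*). Of all coding genes under 500 bases 7.32% were lower at the thresholds. No member longer than 453 bases passed the thresholds. Within that range *COX14*, *COA3*, *COX19* and *PET100*, of 213 to 336 bases, did not pass either. The lower genes of this list thus lay among the short genes described above, and the part of length in these values was not tested.

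Yeast keeps pairs of genes of which 1 copy is used in air and the other at low oxygen (5 pairs read here). *HYP2*, the translation factor eIF5A of aerobic cells, read 10.3, 9.91 and 10.2 against 9.54, 9.54 and 9.15, a difference of 0.73 (adjusted p = 0.159 from limma) without overlap. *ANB1*, its low-oxygen copy, read 4.59, 4.29 and 5.17 against 5.53, 6.26 and 5.72, a difference of -1.15 without overlap that did not pass the thresholds (adjusted p = 0.656). The 2 copies are close in sequence, and probes may not separate them fully. *COX5A* differed by 0.37 with overlap and its low-oxygen counterpart *COX5B* by -1.68. *CYC1* and *CYC7* differed by -0.48 and -0.85 with all wild type arrays and by 0.57 and -0.55 against replicate 1 of wild type alone, *PET9* and *AAC3* by 0.47 and 0.40, and *HMG1* and *HMG2* by -0.08 and -0.84. *ROX1*, which encodes a repressor of low-oxygen genes, read 2.08, 2.14 and 2.45 against 1.37, 1.22 and 1.66, near the array medians in wild type, a difference of 0.80 (adjusted p = 0.159) without overlap, and *HAP1*, a heme-responsive activator, differed by -0.70 without overlap. In no pair did both members pass the thresholds, and the difference between members of a pair was not tested. The pairs were chosen after *COX5B*, *HYP2* and *ROX1* had been seen.

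Of the 2443 probe sets without a gene name in the annotation at hand, 7 were higher and 34 lower at the thresholds, and of 328 with several names 15 were higher and 2 lower. None had an adjusted p under 0.05 by limma.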
